A study of Arabidopsis thaliana with 12 samples.

Results

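PYG7 and PSAN are the pair of photosystem I genes measured on this array by a feature paired with exactly 1 gene. They were taken by locus from the platform's gene table, AT1G22700 (PYG7, feature 920) and AT5G64040 (PSAN, feature 85), and make up 2 of 692 features with exactly 1 gene and of 3439 features in all. The array profiled total RNA of wild-type Arabidopsis thaliana, ecotype C24. One group was grown under light specific for photosystem I (PSI light) without DCMU, and the other was grown under light specific for photosystem II and received the electron transport inhibitor DCMU (PSII light with DCMU). Each group held 6 samples. Light and DCMU always changed together, so their effects cannot be told apart, and no source used here gives tissue, plant age, DCMU dose or length of treatment. Both genes were selected on their roles in photosystem I and on their intensity difference between these groups in the same samples, so that difference is given as a description with no test.

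Photosystem I takes electrons from the soluble carrier plastocyanin in the thylakoid lumen and passes them to ferredoxin in the stroma. Its reaction centre proteins are encoded in the plastid, and many of its smaller subunits, together with the factors that put the complex together, are encoded in the nucleus. DCMU stops electrons from leaving photosystem II for the plastoquinone pool, while PSI light draws electrons out of that pool, and the redox state of the pool is known to act on the expression of photosynthesis genes. PYG7 (PALE YELLOW GREEN7) is an assembly factor, a thylakoid protein with tetratricopeptide repeats related to Ycf37 of cyanobacteria, and plants that lack it do not accumulate photosystem I. PSAN encodes PSI-N, a small extrinsic subunit on the lumenal side of photosystem I that takes part in the interaction with plastocyanin. The 2 genes therefore stand for different roles, one for building the complex and one for the finished complex.

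The assembly factor and the subunit stood far apart in their difference between the lights. The PYG7 feature was 5.55 times as intense under PSII light with DCMU as under PSI light (0.923 ± 0.0349 against 0.166 ± 0.0166, SD, n = 3). The PSAN feature was 1.09 times as intense (3.06 ± 0.129 against 2.81 ± 0.255, SD, n = 3). Intensities are on the linear scale of the deposited table, for which no source used here gives a unit or a background level. They can be compared for 1 feature across samples. Between features they rank the brightness of the signal only, and not the amounts of RNA.

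Samples 1 and 2, 3 and 4, and 5 and 6 of a group behaved as technical pairs across the array, so each pair was averaged to 1 replicate (replicates 1, 2 and 3) and n = 3 per group. Deviations from the group mean correlated at 0.38 to 0.66 between partners and at -0.51 to -0.18 between other samples of a group. No label ties a sample to a plant of its own, so errors and p-values measure the spread among these samples alone, and that spread may be technical. Sample medians ran from 0.542 to 0.584 in the PSI light group and from 0.632 to 0.688 in the other, in a table of values from 0 to 100. Precision is limited by the number of arrays.

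The intensity of PYG7 under PSI light was 0.151 and 0.146 in samples 1 and 2, 0.168 and 0.194 in samples 3 and 4, and 0.159 and 0.180 in samples 5 and 6. Under PSII light with DCMU it was 0.886 and 0.881 in samples 1 and 2, 0.881 and 0.992 in samples 3 and 4, and 0.920 and 0.978 in samples 5 and 6. The groups did not overlap: the lowest sample under PSII light with DCMU was 4.53 times the highest under PSI light. Replicates of the groups also failed to overlap in 60.7% of all features (33.8% with the higher values under PSII light with DCMU), so separation of the groups was common on this array. On the log2 scale the difference was 2.48 ± 0.087 (SE, n = 3), and it was 2.57, 2.37 and 2.49 between replicates of the same number. Of the 3439 features, 45 had a larger difference in this direction, which placed PYG7 at rank 46, and at rank 10 among the 692 features with exactly 1 gene.

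The intensity of PSAN under PSI light was 2.71 and 2.50 in samples 1 and 2, 2.72 and 2.73 in samples 3 and 4, and 2.93 and 3.25 in samples 5 and 6. Under PSII light with DCMU it was 2.75 and 3.07 in samples 1 and 2, 3.25 and 2.98 in samples 3 and 4, and 3.13 and 3.17 in samples 5 and 6. The groups overlapped, and the highest sample under PSI light, number 6, all but equalled the highest under PSII light with DCMU, number 3. Same-numbered samples were higher under PSII light with DCMU in 5 of 6 cases. The log2 difference was 0.13 ± 0.081 (SE, n = 3), and it was 0.16, 0.19 and 0.028 between replicates of the same number. Of all features, 54.1% had a lower signed difference than PSAN and 16.9% a smaller one in absolute size.

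**Figure D1:**
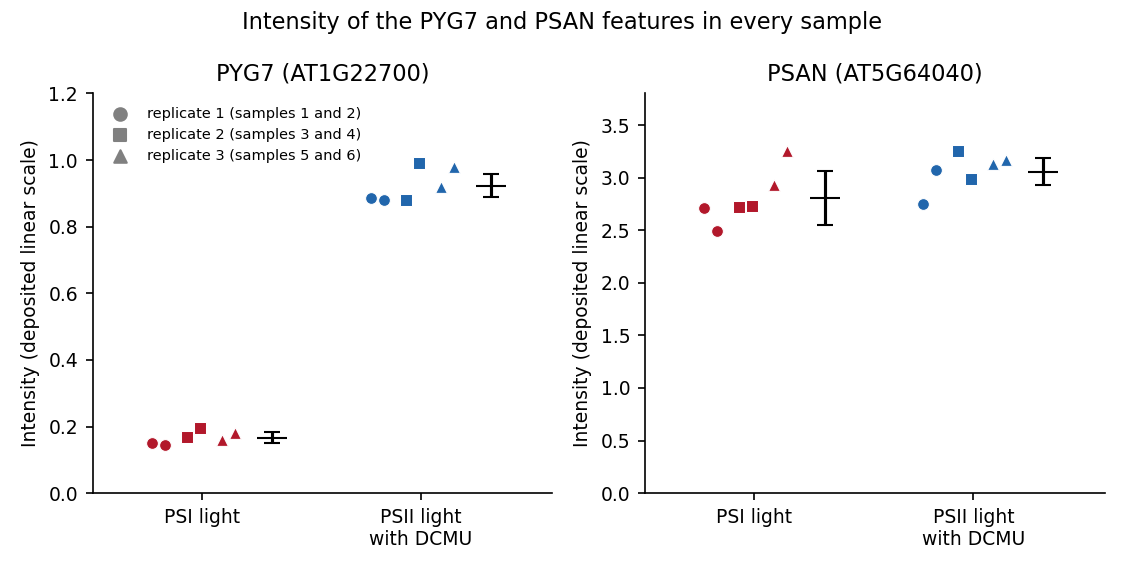
Intensity of PYG7 (left) and PSAN (right) on the deposited linear scale in each of the 12 samples, with red for PSI light and blue for PSII light with DCMU. Symbols mark the averaged replicate a sample belongs to, and black bars give the mean ± SD of 3 replicates. PYG7 runs from 0.146 to 0.194 in the red group and from 0.881 to 0.992 in the blue group, while the PSAN values of the groups overlap between 2.75 and 3.25.

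The spread within a group was not used to choose the genes, and between replicates both were among the less variable features of the whole array. On the log2 scale the SD between the replicates of a group was 0.109 for PYG7 and 0.101 for PSAN, against a median of 0.207 over the 3208 features above the floor in all samples. Only 12.4% and 9.66% of those features had a smaller SD. These shares are over features of all places and brightnesses, and features of like place or brightness were not compared for spread. Single samples varied within their pairs with an SD of 0.10 for PYG7 and 0.0803 for PSAN (median 0.117), and 37.4% and 21.7% of the features had a smaller one. The widest gap within a pair was 16.1% for PYG7, between samples 3 and 4 under PSI light, and 11.9% for PSAN, between samples 1 and 2 under PSII light with DCMU. The SD within pairs is that of single samples, while the SD between replicates is that of pair averages, so the sizes do not compare directly. Replicate 1 was the lowest in both groups for PYG7 and for PSAN, a pattern found in 7.73% of features, and replicate 3 was the highest in both groups for PSAN (10% of features).

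The signal of PYG7 under PSI light was dim. Its mean was 3.86 times the floor of 0.0431 (the 1st percentile of the positive intensities, to which lower values were raised) but 0.793 times the 10th percentile, 0.210. With that percentile as the floor the log2 difference was 2.14 ± 0.033, and with it as a pseudocount 1.59 ± 0.055, over 1.5 times smaller, so the size of the fold depends on how low values are treated. PSAN stood at 65.2 times the floor under PSI light and hardly depended on it.

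Both features sit where other features tended to be lower under PSII light with DCMU. Differences across the array varied with place, taken as the position within runs of 288 feature numbers: PYG7 has place 56 and PSAN place 85, both in the first 96. The other 1108 features in that stretch had a median log2 difference of -0.31 (quartiles -0.65 and 0.064). None of them reached the 2.48 of PYG7, and the next highest stood at 2.13. PSAN was above 78.7% of its 1108, and above all 12 other features at exactly its own place, whose values ran from -0.90 to 0.12. The 10 features on either side in feature order had medians of -0.11 for PYG7 (highest 1.21) and -0.19 for PSAN (highest 1.01).

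Brightness moved with the difference as well. The 200 features nearest to PYG7 in mean log2 intensity had a median difference of 0.54, and 3 of them exceeded PYG7. The 200 nearest to PSAN had a median of -0.50, and PSAN was above 75% of them. With the median of each place taken out, the differences were 2.68 ± 0.166 for PYG7 and 0.19 ± 0.121 for PSAN. The part of place and brightness in either difference was not tested further.

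**Figure D2:**
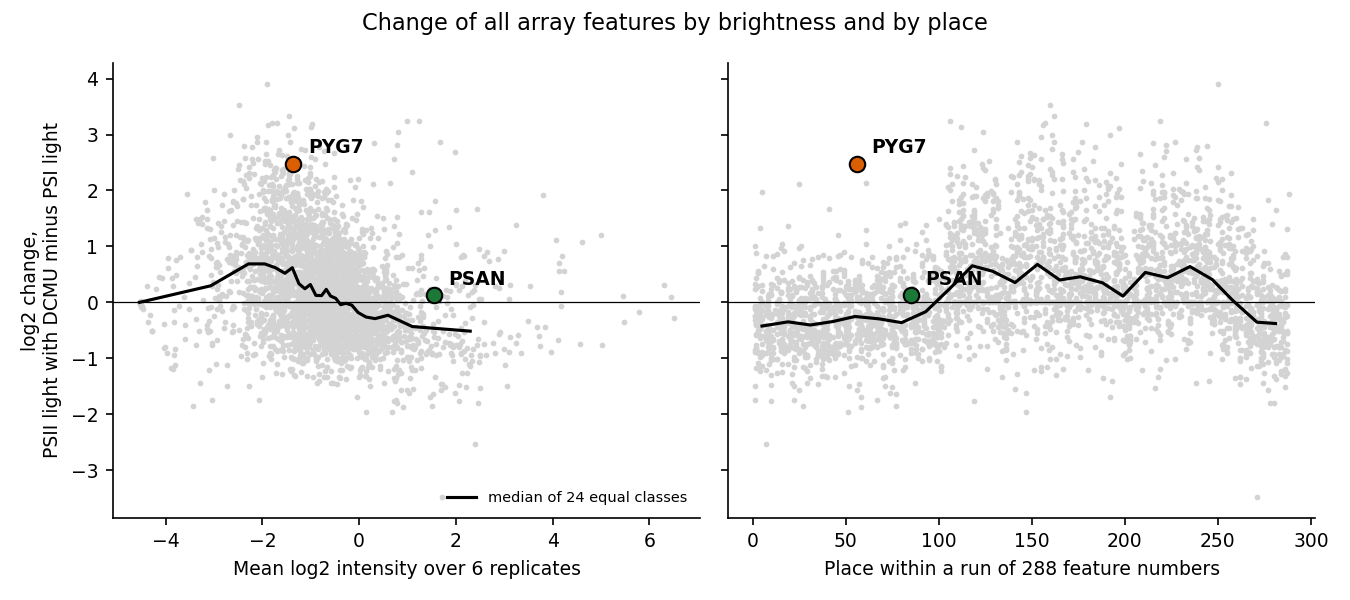
Log2 difference of each of the 3439 features (PSII light with DCMU minus PSI light, y axis) against mean log2 intensity over 6 replicates (left) and against place within a run of 288 feature numbers (right). Black lines join the medians of 24 classes of nearly equal size. PYG7 (2.48) stands far above the other features of its place, and PSAN (0.13) lies above the median both of features of its brightness and of features of its place.

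Scaling set the sign of the small PSAN difference. It was 0.45 ± 0.095 after quantile normalization and -0.091 ± 0.137 with each sample centred on its median, which moved the median difference of all features from 0.039 to -0.18. Relative to the median of all features, PSAN stood at 0.088 as deposited and with centring, and at 0.50 after quantile normalization. PYG7 kept its direction, with 2.09 ± 0.114 and 2.26 ± 0.131. Relative to all features it stood at 2.44 as deposited and with centring, and at 2.14 after quantile normalization.

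**Figure D3:**
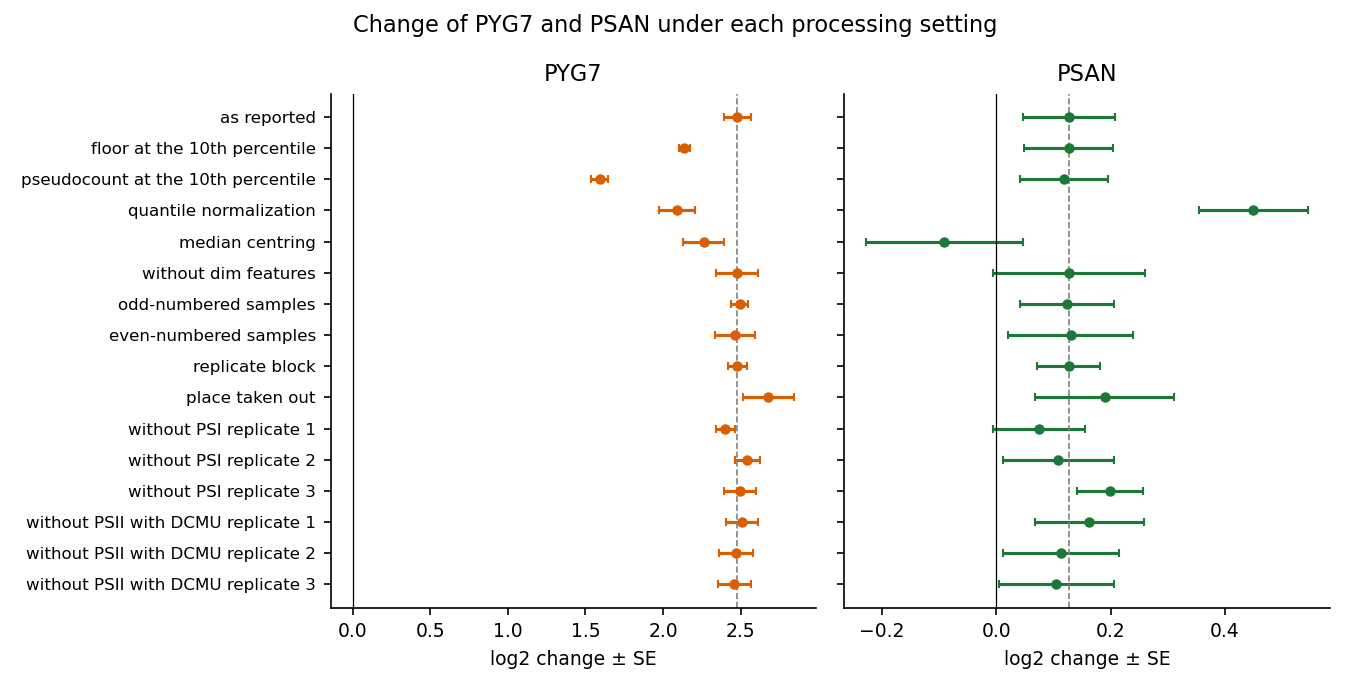
Log2 difference ± SE (x axis, PSII light with DCMU minus PSI light) of PYG7 and PSAN under the reported setting and each alternative, one per line. The dashed line marks the reported value and the solid line 0. PYG7 stays between 1.59 and 2.68, and PSAN lies between -0.091 and 0.45.

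Few partners of these genes could be read on this array. Apart from PYG7 and PSAN, 43 genes were listed for photosystem I (subunits, antenna, assembly, and electron donors and acceptors with the steps next to them), and 1 of them had a feature of its own. That gene was CCB3, which acts in the assembly of the cytochrome b6f complex, the electron carrier between the photosystems. Its feature was under the floor in all 12 samples, so no difference could be read. Among the 16 other subunits and 10 other assembly factors, 0 had a feature of their own, the plastid genes psaA and psaB among them. Of 7 markers of root and seed, 0 had one, so the labels, which name no tissue, could not be checked in this way.

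Genes of the complexes around photosystem I were compared over the whole table, where 1667 of 3439 features, or 48.5%, passed the test (limma, Benjamini-Hochberg adjusted p under 0.05), 909 of them with higher values (26.4%) and 758 with lower ones (22%) under PSII light with DCMU. The share of higher calls was 54.5% as deposited, 41.6% after quantile normalization, 40.9% with centring and 38.9% with place taken out. Of 12 listed genes with a feature of their own, CCB3 included, 5 rose, 3 fell and 4 did not pass. Thus 8 of 12, or 66.7%, were called, with a median difference of 0.30 against 0.039 over all features. The gene lists were made with earlier results of these data known, so these counts describe the listed genes only.

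The chloroplast NDH complex forms a supercomplex with photosystem I and returns electrons from the stroma to plastoquinone. Of 7 genes listed for it, 4 were measured and all 4 rose, against 26.4% of all features, a share taken over all places of the array. The list was made with earlier results of these data known, so this count describes the listed genes and not the complex. CRR41, an assembly factor of that complex, rose by 1.89 ± 0.259 (log2, SE; adjusted p = 0.00469), from 0.204 ± 0.0691 to 0.718 ± 0.0203 (SD, n = 3; limma). The subunit genes NDHS and NDHN rose by 0.78 ± 0.135 and 0.75 ± 0.074, and PIFI, which acts in chlororespiration, by 0.75 ± 0.157 (adjusted p = 0.00936, 0.00197 and 0.0162, limma). With place taken out NDHN stood at -0.52 ± 0.148 and PIFI at -0.83 ± 0.114, the opposite direction, while CRR41 stood at 0.85 ± 0.148 (1.18 ± 0.126 with the pseudocount at the 10th percentile). PIFI did not pass after quantile normalization (0.094 ± 0.118) or without replicate 1 or 2 under PSII light with DCMU (adjusted p = 0.0548 and 0.0503).

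Photosystem II and grana genes moved both ways. Neither of the subunit genes PSBW and PSBY passed, with differences of 0.19 ± 0.118 and 0.40 ± 0.231 (adjusted p = 0.235 and 0.213, limma). The gene of the antenna protein LHCB1.5 stood at -0.34 ± 0.117 and did not pass either (adjusted p = 0.0651, limma), though it passed with centring (-0.56 ± 0.127, adjusted p = 0.00805) and in the odd-numbered samples alone (-0.43 ± 0.096, adjusted p = 0.0213). The assembly factors PSB27 and LPA19 fell by 1.18 ± 0.154 and by 0.88 ± 0.119, and RBD1, a thylakoid rubredoxin, fell by 0.59 ± 0.069 (adjusted p = 0.00406, 0.00451 and 0.00309, limma). PYG7, also an assembly factor, differed in the other direction, but it was selected on this difference, so the contrast is a description. RIQ2, which affects grana stacking, rose by 1.13 ± 0.287 (adjusted p = 0.0283, limma). The array also names RIQ2 among the several genes of a shared feature, which was not used for it. Direction went with place among the called genes. PSB27, LPA19 and RBD1, which fell, have places 2, 39 and 76, where other features also tended to be lower. RIQ2, which rose, has place 205. The part of place in these differences was not tested. With place taken out RBD1 did not pass (-0.15 ± 0.118) and PSBY passed (0.68 ± 0.174, adjusted p = 0.0174). PSB27 then stood at -0.94 ± 0.169, LPA19 at -0.52 ± 0.111 and RIQ2 at 0.75 ± 0.242, all still past the threshold. RIQ2 did not pass under 7 of 15 alternatives. With the replicate number as a block PSBY (adjusted p = 0.018) and LHCB1.5 (adjusted p = 0.0334) passed and RIQ2 (adjusted p = 0.0777) did not.

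ATAB2 binds RNA and acts in the translation of mRNAs for the reaction centre proteins of both photosystems. It was added for its role once the names on the array and earlier results of these data were known. Its intensity was 0.0689 ± 0.0354 under PSI light and 0.202 ± 0.0244 under PSII light with DCMU (SD, n = 3), and it rose by 1.65 ± 0.362 (log2, SE; adjusted p = 0.0187, limma). Both means lie under the 10th percentile of intensities, and with that percentile as the floor the difference was 0.045 ± 0.044 and did not pass. It was 0.57 ± 0.105 with that percentile as a pseudocount, 1.005 ± 0.311 after quantile normalization and 1.03 ± 0.321 with place taken out. The call also ended without replicate 3 under PSI light or any replicate under PSII light with DCMU (adjusted p = 0.0543 to 0.0646).

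**Figure D4:**
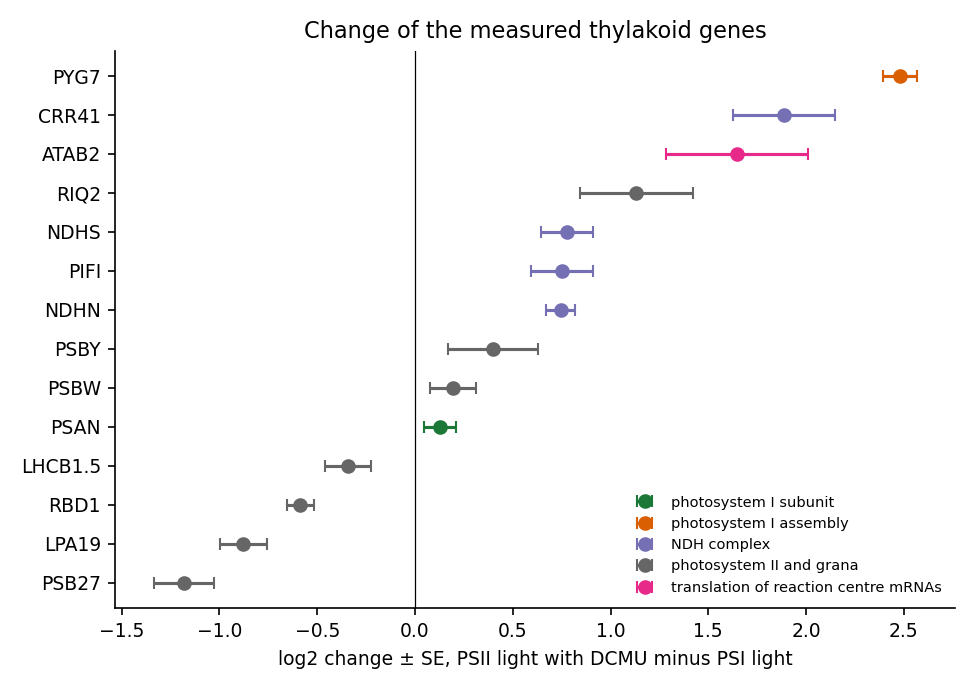
Log2 difference ± SE (x axis, PSII light with DCMU minus PSI light, 3 replicates per group) of the measured genes of photosystem I, the NDH complex, photosystem II and grana, and ATAB2, ordered by size. CCB3, under the floor in all samples, is left out. PYG7 (2.48) stands at the top, PSAN (0.13) close to 0 and PSB27 (-1.18) at the bottom.

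The features most like each gene were sought among 690 other features with exactly 1 gene. Taken were those with the smallest root mean square difference between log2 profiles over the 6 replicates, each centred on its own mean. The profiles include the difference between the groups, on which both genes were selected, so near features are in part those with a like difference. Nearest to PYG7 were AT1G75260 (0.133), AT3G57440 (0.152), AT5G02050 (0.169), AT5G22620 (0.196) and AT5G19050 (0.204), against a median of 1.21 over the 690. Their log2 differences between the groups ran from 2.24 for AT3G57440 to 2.52 for AT1G75260 (1.15 to 1.66 over the 5 with place taken out), and 4 of the 5 were, like PYG7, under the 10th percentile of intensities under PSI light. Nearest to PSAN were AT1G54520 (0.0747), AT3G09850 (0.0898), PSBW (0.0903), AT3G43610 (0.0968) and the cyanase gene CYN (0.0968), against a median of 0.359. AT1G54520 and AT3G43610 lay under the 10th percentile of intensities in both groups. The difference of AT1G54520 was 0.44 ± 0.041 in the odd-numbered samples and -0.29 ± 0.163 in the even-numbered ones, so its likeness to PSAN rests on the averaging of pairs. PSBW, which encodes a small subunit of photosystem II, was the only gene of the photosystem lists among these 10. Its mean intensity went from 17.1 ± 1.57 to 19.6 ± 2.44 (SD, n = 3), and the replicates of the groups overlapped. The profiles of PYG7 and PSAN differed by 1.18 in the same measure.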

How the data were processed

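The authors deposited 1 table of linear array intensity values for 3439 features in 12 samples. No source used here tells how the intensity was scaled or corrected for background. All columns belong to the 12 samples. Names come from the gene table of the platform, whose annotation may be outdated (1 gene for 692 features, several for 870, none for 1877). Of the 692, 690 matched the RefSeq gene table of TAIR10.1, which lists 3 transcripts for PYG7 and 2 for PSAN. The name PYG7 follows common use for its locus. Probe sequences were not used, so related genes or single transcripts cannot be told apart.

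Values under 0.0431, the 1st percentile of the positive intensities (4.74% of values, zeros included), were raised to it and log2 was taken. Pairs of samples were averaged, on the log2 scale for fits and on the linear scale for intensities. All 12 samples correlated best with their partner. Replicates of the same number also correlated across groups (0.29 to 0.36, other numbers -0.33 to 0.0029), so numbers pair the replicates; this comes from the data and the titles. The model was fitted in limma 3.58.1 (R 4.3.3; lmFit, eBayes), two-sided, without a block, with Benjamini-Hochberg adjustment over 3439 features at 0.05. The code was also run on simulated data with independent replicates and a difference in a small part of the features. The real data differ in both respects, so that run checks the code and not the calls given here. Figures used matplotlib 3.10.9 in Python 3.11.15. Members, gene lists and alternatives were chosen with earlier results of these data known. The locus of CRR41 and those of the plastid genes were corrected in the lists from the gene table after it was read. Named are PYG7, PSAN, all listed genes with their own feature, and the 5 nearest profiles of each.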

Additional observations from a re-analysis of the deposited data

How the results depend on the processing

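The difference of PYG7 kept its direction under all 15 alternatives and that of PSAN under all except centring. That of PYG7 (2.48) was 2.14 with the 10th percentile as floor, 1.59 with it as pseudocount, 2.09 after quantile normalization, 2.26 with centring, 2.68 with place taken out, and 2.40 to 2.54 without 1 replicate. That of PSAN (0.13) was 0.45 after quantile normalization, -0.091 with centring and 0.074 to 0.20 without 1 replicate. The count of called features was 1138 to 1685 without 1 replicate and 1541 to 1913 under the other alternatives, and that of called genes of the photosystem lists was 6 to 8 and 6 to 9 (main counts 1667 and 8). With the replicate block the differences were 2.48 ± 0.060 for PYG7 and 0.13 ± 0.055 for PSAN and 1656 features were called. PSBY, LHCB1.5 and RIQ2, given above, changed their calls with it, and no other gene named here did. Place taken out turned NDHN (-0.52), PIFI (-0.83), AT1G54520 (-0.9998), AT3G43610 (-0.79) and AT3G09850 (-0.35, which did not pass). It gave CCB3, where nothing was measured, -1.41 ± 0.184 (adjusted p = 0.00146, limma). For a feature held at the floor such a value follows from subtracting the median of its place, so it cannot be read as a difference. Whether the calls that this setting alone gains or turns in features above the floor would hold was not tested. Leaving out dim features left 3169 features. How far signals lie above background is unknown.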
